A study of Mus musculus with 8 samples.

Results

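The 9 genes described here encode enzymes of glycogen synthesis and breakdown and the subunits that bring protein phosphatase 1 to the glycogen particle. They were taken by symbol from the 19348 genes of the deposited tables: the targeting subunits Ppp1r3b, Ppp1r3c, Ppp1r3d and Ppp1r3g, the glycogen synthases Gys1 and Gys2, the phosphorylases Pygl and Pygb, and the branching enzyme Gbe1. Ppp1r3c was chosen by its measured values, because it was lower in knockout liver, so its liver values are given as a description with no test. RNA was sequenced from liver and from epididymal white adipose tissue (eWAT) of male mice of the C57BL/6 strain, aged 12 weeks and fasted for 16 h on a normal diet. Mice were labelled Crtc1-/- or Crtc1+/+, and each tissue and genotype had 2 libraries, which made 8 in all. Per the study's methods both tissues were taken from 2 mice of each genotype, so the libraries of the 2 tissues share animals, and the labels do not say which come from the same mouse. Crtc1 encodes a coactivator of the transcription factor CREB. The knockout was made in the whole body with CRISPR/Cas9 guides to exons 2 and 4, and the controls were wild-type littermates. Libraries held between 16560085 and 19721481 counts assigned to genes.

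Glycogen is the branched glucose store of liver and muscle, and fat holds a small amount of it. Glycogen synthase lengthens the chains, the branching enzyme adds the branches, and phosphorylase cuts glucose 1-phosphate from the chain ends. Synthase is active when dephosphorylated and phosphorylase when phosphorylated. The targeting subunits hold protein phosphatase 1 on glycogen, where it activates the former and inactivates the latter. During a fast, glucagon and adrenaline act through cAMP and phosphorylase kinase to break liver glycogen down.

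Some libraries stood apart in ways that touch these genes. The 12 hepatocyte markers, among them Alb and Apoa1, took 20.0 to 24.0% of counts in liver. Their share in eWAT was 0.128 to 0.669% in 3 libraries and 10.9% in the second library labelled Crtc1-/-. All 12 had counts in every eWAT library. The 17 epididymis markers, among them Gpx5 and Lcn8, took 7.80 and 9.12% of counts in the eWAT libraries labelled Crtc1+/+ but 0.00245 and 0.00119% in those labelled Crtc1-/-. The 12 adipocyte markers, among them Fabp4 and Cfd, took 0.286 and 0.477% in the former and 4.83 and 2.32% in the latter. The 6 macrophage markers, among them C1qa and Lyz2, took 0.0304 and 0.0150% in Crtc1+/+ eWAT, 0.111 and 0.0475% in Crtc1-/- eWAT and 0.0108 to 0.0228% in liver. The 9 skeletal muscle markers, among them Acta1 and Myh4, took 0.000991% in the second liver library labelled Crtc1+/+ and 0.0525 to 0.0718% in the other liver libraries. In eWAT they took 0.0602 and 0.0357% in the Crtc1+/+ and 0.102 and 0.0770% in the Crtc1-/- libraries. Levels are given as CPM, the counts of a gene scaled to a common library size. Among the muscle markers in eWAT, Acta1 was at 176 and 88.3 CPM in Crtc1+/+ and at 831 and 523 CPM in Crtc1-/- libraries. Myh4 overlapped, at 89.4 and 72.3 against 36.2 and 106 CPM. Alb was at 2761 and 422 CPM in Crtc1+/+ eWAT and at 522 and 65412 CPM in Crtc1-/- eWAT. It was thus lower in the first Crtc1-/- library than in the first Crtc1+/+ one, at hepatocyte marker shares of 0.600 and 0.669%. Crtc1 itself was at 11.7 and 9.86 CPM in Crtc1+/+ liver and 22.1 and 18.0 in Crtc1-/- liver, and at 32.6 and 33.7 in Crtc1+/+ eWAT and 58.5 and 33.6 in Crtc1-/- eWAT. In CPM no library labelled Crtc1-/- was thus below both controls of its tissue. Before scaling, the second Crtc1-/- eWAT library was lower, with 484 counts against 676 and 650 in the controls. In FPKM it was lower too, at 4.95 against 6.69 and 6.78. A count over the whole gene does not check a deletion of some of its exons. Genotypes below are those of the labels. The differences in epididymis, adipocyte, macrophage and muscle markers and the genotype of the eWAT libraries cannot be told apart.

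The 9 genes lie at separate places in the mouse genome (build GRCm38.p6, RefSeq gene spans). Ppp1r3b is at chr8:35375694-35388139 on the plus strand, Ppp1r3c at chr19:36731731-36736604 on the minus strand, Ppp1r3d at chr2:178411206-178414463 on the minus strand and Ppp1r3g at chr13:35958824-35970388 on the plus strand. The synthases are Gys1 at chr7:45434839-45456617 (plus) and Gys2 at chr6:142422612-142473130 (minus). Pygl is at chr12:70190815-70227683 (minus), Pygb at chr2:150786796-150831748 (plus) and Gbe1 at chr16:70313949-70569720 (plus). In the GENCODE vM21 annotation 310 of the 4789 exon bases of Gys1 overlap exons of Ruvbl2 on the opposite strand, so a part of its reads could belong to either gene. No exon overlap with another gene was found for the other 8.

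RefSeq promoter windows (250 bases before to 50 after the start) were given for 7 of the 9 genes, all but Ppp1r3b and Gys2. CREB-type factors bind the cAMP response element TGACGTCA or its shorter form TGACG, and E-box factors, which include the glucose-responsive ChREBP and the clock proteins, bind CACGTG. The 250 bases before the start are shown for Ppp1r3c and Ppp1r3d, the 2 targeting subunits whose genotype groups did not overlap in eWAT, 5′ to 3′ on the gene's strand with every match to these motifs in capitals.
Ppp1r3c, chr19:36736605-36736854, minus strand: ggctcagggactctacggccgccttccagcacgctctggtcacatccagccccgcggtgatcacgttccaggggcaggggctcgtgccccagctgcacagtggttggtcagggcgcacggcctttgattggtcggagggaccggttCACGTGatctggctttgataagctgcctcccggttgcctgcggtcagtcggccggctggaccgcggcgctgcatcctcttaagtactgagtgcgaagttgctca
Ppp1r3d, chr2:178414464-178414713, minus strand: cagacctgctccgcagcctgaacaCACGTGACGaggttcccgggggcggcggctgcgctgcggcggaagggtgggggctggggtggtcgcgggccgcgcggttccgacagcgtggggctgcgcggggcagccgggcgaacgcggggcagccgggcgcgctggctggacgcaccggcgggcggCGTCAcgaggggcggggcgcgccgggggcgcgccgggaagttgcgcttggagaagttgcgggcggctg
The Ppp1r3c window held 1 E-box, at bases -104 to -99 counted from the start, and neither form of the cAMP response element. In the Ppp1r3d window an E-box at -226 to -221 shares 2 bases with a short element at -222 to -218, and a second short element lies at -68 to -64 on the other strand. Single short elements were also found before the starts of Ppp1r3g, Pygb and Pygl, and none of the 3 motifs in the windows of Gys1 and Gbe1. For Ppp1r3g the 250 bases before the start, chr13:35967656-35967905, lie inside the gene span given above, so this start is an internal one. The full element was in 0 of the 7 windows and in 1.79% of the 32851 mouse promoters of the same length, the short element in 4 of 7 against 20.8%, and the E-box in 2 of 7 against 7.15%. A match is only a run of letters, and its absence from a window says nothing about a factor.

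In liver, the comparison of genotypes asks whether loss of Crtc1 altered these transcripts in the organ that releases glycogen glucose in a fast. Ppp1r3c, also called PTG, was at 44.0 and 34.7 CPM in the Crtc1+/+ libraries and at 10.8 and 10.2 CPM in the Crtc1-/- libraries. Both knockout libraries were far below both controls. The log2 difference was -1.91 (SE 0.26), or 0.267 times the control level. Ppp1r3b, which encodes GL, the main targeting subunit of liver, was at 88.3 and 113 CPM in Crtc1+/+ and at 54.9 and 62.7 CPM in Crtc1-/- liver. The groups did not overlap, but the difference did not pass the test (log2 -0.77, SE 0.26, edgeR unadjusted p = 0.0146, adjusted p = 0.209). Ppp1r3d had 3, 3, 3 and 5 counts in the 4 liver libraries and Ppp1r3g had 11, 4, 8 and 1, and neither could be tested there.

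The liver synthase Gys2 was at 169 and 178 CPM in Crtc1+/+ and at 119 and 145 CPM in Crtc1-/- liver, again without overlap (log2 -0.39, SE 0.25, adjusted p = 0.430). The muscle-type synthase Gys1 was low in all 4 livers, at 5.91 and 3.46 CPM in the controls, with both knockouts between these 2 values. Pygl, the liver phosphorylase, was at 124 and 208 CPM in the controls and 108 and 71.7 CPM in the knockouts. These values spread widely within both genotypes and did not overlap, and the difference did not pass the test (log2 -0.89, SE 0.33, edgeR unadjusted p = 0.0237, adjusted p = 0.237). Without the first Crtc1-/- liver library it was -1.21 with an adjusted p of 0.00561. Gbe1 was at 15.1 and 16.3 CPM against 10.53 and 10.51 CPM, a small gap with little spread in either group (log2 -0.58, SE 0.26, adjusted p = 0.293). Pygb, named for the brain enzyme, was at 7.04 and 3.83 against 4.82 and 5.02 CPM.

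Besides Ppp1r3c, 6 members were tested in liver and 0 of them passed an adjusted p under 0.05 in edgeR, where 0.0854% of all 11707 genes did. At an unadjusted p under 0.05 there were 2 of the 6 (Ppp1r3b and Pygl) against 17.3% of all genes, and DESeq2 also called 0 of the 6 against 2.66%. All 6 differences were below 0, but those of Gys1 (-0.05) and Pygb (-0.14) were within their standard errors of 0.37 each and turned positive under other settings or without 1 control library. The groups were apart and lower in Crtc1-/- for 4 of the 6, while 26.4% of all genes showed this. The median of the 6 was -0.49, against 0.00393 over all genes tested.

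**Figure D1:**
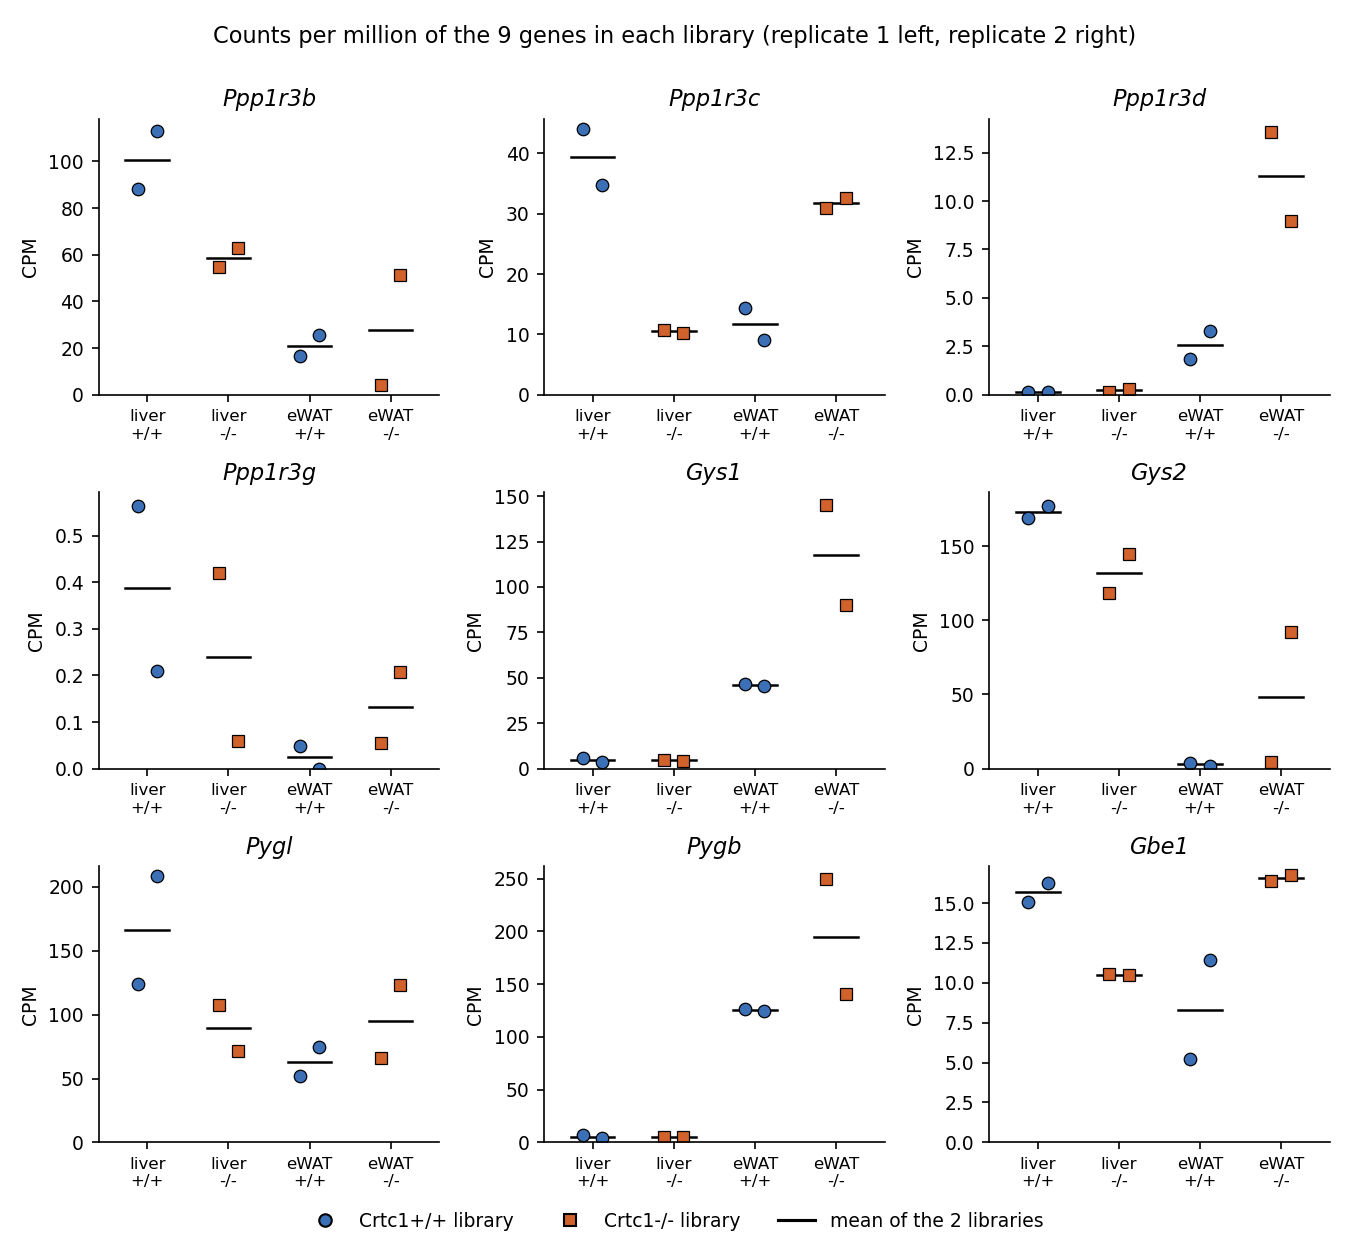
CPM of the 9 genes (vertical axes, from 0) in the 8 libraries, scaled within each tissue, with circles for Crtc1+/+, squares for Crtc1-/- and a bar at the mean of 2 libraries. Ppp1r3c was at 10.8 and 10.2 CPM in Crtc1-/- liver against 44.0 and 34.7 in Crtc1+/+ liver, and in eWAT its Crtc1-/- libraries were the higher ones.

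In eWAT the same question gave values on the other side of 0 for all 8 members tested. Ppp1r3c was at 14.3 and 9.02 CPM in the Crtc1+/+ libraries and at 31.0 and 32.6 CPM in the Crtc1-/- libraries. The 2 knockout libraries were close together and both above the controls. The log2 difference was 1.45 (SE 0.38), 2.73 times the control level, with an unadjusted p of 0.0129 and an edgeR adjusted p of 0.0717. This contrast shares no library with the one that chose the gene, but per the study's methods the 2 tissues came from the same mice. Ppp1r3d, the broadly expressed subunit R6, was at 1.83 and 3.27 CPM in Crtc1+/+ and at 13.6 and 8.96 CPM in Crtc1-/- eWAT. The lowest knockout value was above both controls (log2 2.14, SE 0.56, edgeR unadjusted p = 0.0128, adjusted p = 0.0713).

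Ppp1r3b was at 16.6 and 25.6 CPM in Crtc1+/+ eWAT and at 4.12 and 51.2 CPM in the Crtc1-/- libraries. One knockout library lay below both controls and the other above both, so the groups overlapped. Its log2 difference of 0.39 (SE 1.10, adjusted p = 0.823) turned to -2.40 (adjusted p = 0.0681) without the second Crtc1-/- library, the one rich in hepatocyte markers, and was also below 0 with library-size scaling. Ppp1r3g had 1, 0, 1 and 3 counts in the 4 eWAT libraries. At or under 3 counts in each, it was not detectable beyond the counting floor and was not tested.

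Gys1, the synthase of muscle and fat, was at 46.5 and 45.5 CPM in Crtc1+/+ and at 145 and 90.3 CPM in Crtc1-/- eWAT. Controls were nearly equal and both knockouts were higher, with a log2 difference of 1.35 (SE 0.34), or 2.56 times (edgeR unadjusted p = 0.0101, adjusted p = 0.0632). Without the second Crtc1-/- library it was 1.63 with an adjusted p of 0.0287. Gys2 was at 3.95 and 1.76 CPM in the controls and at 4.45 and 92.2 CPM in the knockouts. A single library carried the difference, which was 4.07 (SE 1.47, edgeR unadjusted p = 0.0396, adjusted p = 0.132) with it and 0.63 without it. Without the first Crtc1-/- library it was 5.02 (adjusted p = 0.00480).

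Pygb, the phosphorylase with the highest FPKM in 3 of the 4 eWAT libraries, was at 126 and 124 CPM in Crtc1+/+ and at 250 and 141 CPM in Crtc1-/- eWAT. The groups were apart in CPM, with most of the gap in 1 library (log2 0.64, SE 0.37, adjusted p = 0.280). In FPKM they overlapped, at 38.8 and 37.0 against 66.4 and 31.0. Pygl was at 51.9 and 74.4 against 66.3 and 123 CPM, with overlapping groups (log2 0.58, SE 0.41, adjusted p = 0.355). Its difference ran from 0.027 to 0.97 under other settings or choices of libraries. Gbe1 was at 5.20 and 11.4 CPM in the controls and at 16.4 and 16.7 CPM in the knockouts. The knockouts were almost equal while the controls differed among themselves (log2 0.995, SE 0.50, adjusted p = 0.228). Under 14 other settings or choices of libraries the Gbe1 difference ran from 0.55 to 1.69.

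Of the 8 members tested in eWAT, 0 passed an adjusted p under 0.05 in edgeR, where 12.2% of all 15391 genes did. A threshold on both size and p, an absolute log2 change over 1 with an unadjusted p under 0.01, also took 0 of the 8, against 15.9% of all genes. Those with an unadjusted p under 0.05 were 4 (Ppp1r3c, Ppp1r3d, Gys1 and Gys2) against 33.3%. DESeq2 called these 4, with adjusted p-values of 0.00644, 0.00353, 0.00184 and 0.00406, while it called 30% of all genes. Groups were apart in CPM and higher in Crtc1-/- for 6 of the 8, where 31.3% of all genes showed this, but in FPKM those of Pygb and Gys2 overlapped. The median log2 difference of the 8 was 1.17, against -0.05 over all genes tested.

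**Figure D2:**
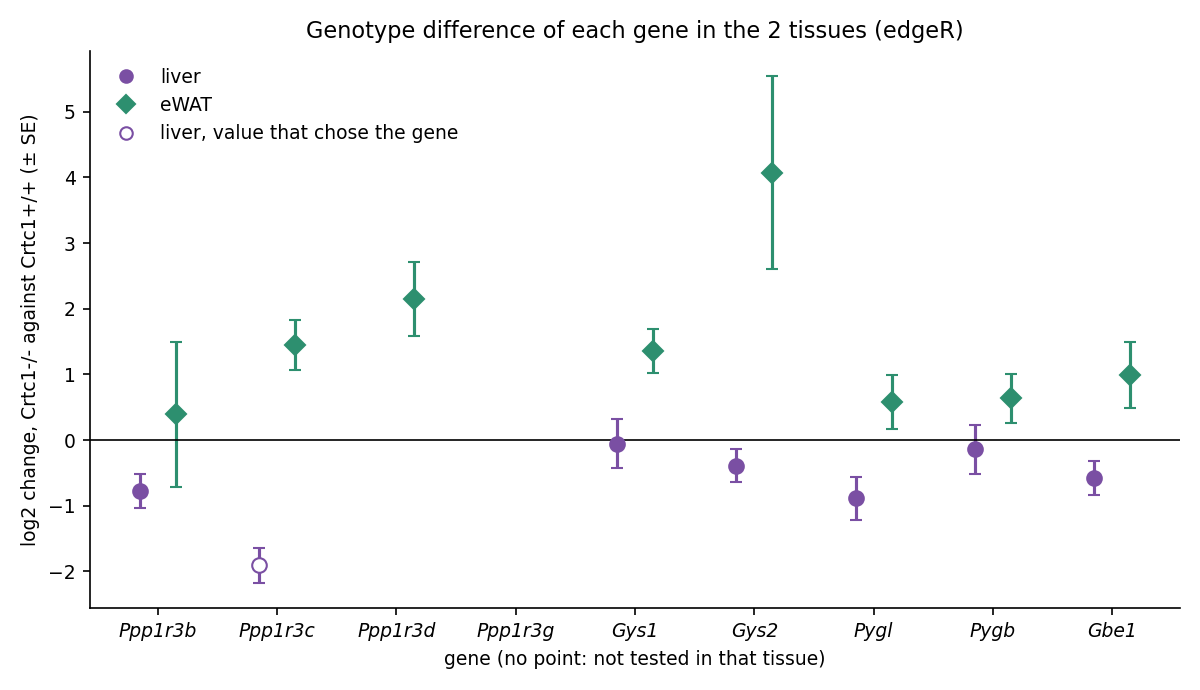
Log2 difference of Crtc1-/- from Crtc1+/+ (vertical axis, with standard error bars from edgeR) for each gene in liver (circles) and eWAT (diamonds), with an open circle for the value that chose Ppp1r3c. Liver values lie below 0 and eWAT values above it, the latter with bars as long as 1.47 for Gys2.

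The eWAT values of the liver-type genes moved with the hepatocyte markers to different degrees. Per 1000 hepatocyte marker counts, Gys2 had 0.834, 0.800, 0.596 and 0.624 counts in the Crtc1+/+ and then the Crtc1-/- livers. In eWAT it had 0.669 and 1.51 in the controls and 0.729 and 0.689 in the knockouts. The second Crtc1-/- eWAT library, with its 10.9% of hepatocyte marker counts, thus had Gys2 in the proportion that liver had. The first eWAT library of each genotype, at 0.669 and 0.729, also lay within the liver range of 0.596 to 0.834. Pygl had 0.309 to 0.939 counts per 1000 marker counts in liver, but 8.80, 63.5 and 10.9 in the first 3 eWAT libraries and 0.919 in the second Crtc1-/- library. Ppp1r3b had 0.270 to 0.509 in liver, 2.81 and 21.9 in the Crtc1+/+ eWAT libraries, and 0.675 and 0.383 in the Crtc1-/- ones. In bulk tissue, fewer cells of a type and less RNA per cell cannot be told apart.

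**Figure D3:**
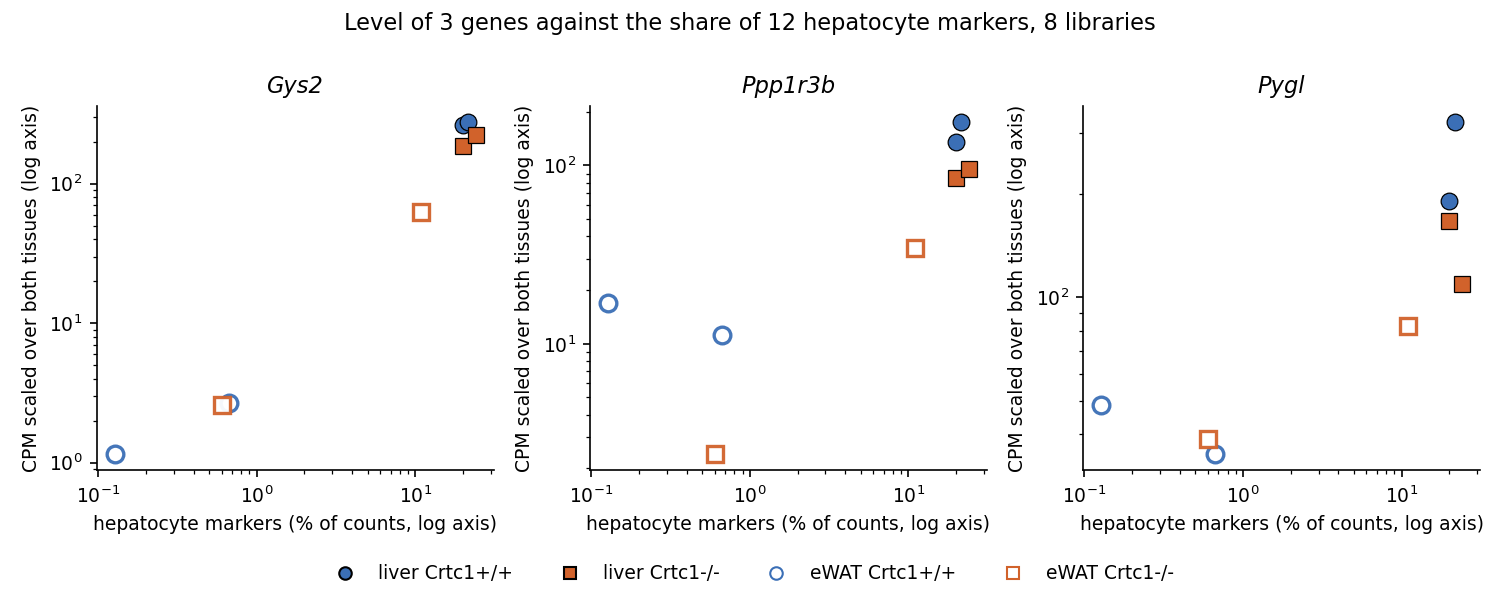
Level of Gys2, Ppp1r3b and Pygl (CPM scaled over both tissues, log axis) against the share of counts in 12 hepatocyte markers (percent, log axis) in the 8 libraries, filled symbols for liver and open ones for eWAT. The eWAT library at 10.9% of marker counts had the highest eWAT level of all 3 genes, and the Crtc1+/+ eWAT libraries held Ppp1r3b and Pygl at shares of 0.669 and 0.128%.

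Whether the genotype difference itself differed between the tissues was tested in a fit of all 8 libraries, which takes the tissues of a mouse as independent. The change in eWAT minus that in liver was above 0 for all 8 members tested. For Ppp1r3c it was 3.27 (SE 0.41), given without a test since the liver libraries chose the gene. Of the other 7, 0 passed an adjusted p under 0.05, against 6.94% of all genes. Gys1 (1.31, adjusted p = 0.113), Gys2 (4.47, adjusted p = 0.144) and Gbe1 (1.503, adjusted p = 0.120) had an unadjusted p under 0.05, 3 of the 7 against 26.9% of all genes. DESeq2 called 1 of the 7, Gys2 (4.52, adjusted p = 0.0146), against 13.2% of all genes. For Gys2 the value was 0.99 without the second Crtc1-/- eWAT library.

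The tissues differed in which isoforms they held, and the deposited FPKM values, which account for gene length and depth, allow levels of different genes to be set side by side. Among the synthases, Gys2 made up between 97.2 and 98.6% of the summed FPKM in the 4 livers. It made up 10.8 and 5.17% in Crtc1+/+ eWAT, and 4.18 and 59.2% in Crtc1-/- eWAT. Gys1 was thus the main synthase transcript in 3 eWAT libraries and Gys2 in the one with many hepatocyte marker counts.

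For the phosphorylases the muscle form Pygm was added to the sum, a gene outside the 9 that was chosen after its values were seen. Pygl was 73.4, 98.4, 65.9 and 67.3% of the sum in liver and 29.0, 39.5, 23.9 and 45.6% in eWAT. The highest of these shares was in the liver library with few muscle marker counts, where Pygm was at 0.260 FPKM, against 12.0 to 19.6 FPKM in the other 3 livers. Whether muscle cells account for Pygm in liver was not tested. The sum of phosphorylase FPKM over that of synthase was 0.905 and 1.09 in Crtc1+/+ liver and 1.24 and 0.672 in Crtc1-/- liver. In eWAT it was 4.55 and 5.19 in the controls and 2.42 and 1.61 in the knockouts, so that all eWAT libraries lay above all livers and the eWAT genotypes did not overlap.

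Among the 4 targeting subunits the summed FPKM was 38.4 and 39.8 in Crtc1+/+ liver and 17.9 and 20.1 in Crtc1-/- liver. It was 11.7 in both Crtc1+/+ eWAT libraries and 17.3 and 23.1 in the Crtc1-/- ones. Ppp1r3b was the larger part in every liver, at 54.4 and 66.0% in Crtc1+/+ and 74.7 and 78.7% in Crtc1-/-, and Ppp1r3c made up 44.8, 33.7, 23.9 and 20.7%. In eWAT Ppp1r3c was 54.8 and 33.4% in the controls and 69.5 and 45.4% in the knockouts, so the share overlapped between genotypes there. Ppp1r3d was at most 0.498% in liver and 5.73 to 24.8% in eWAT.

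**Figure D4:**
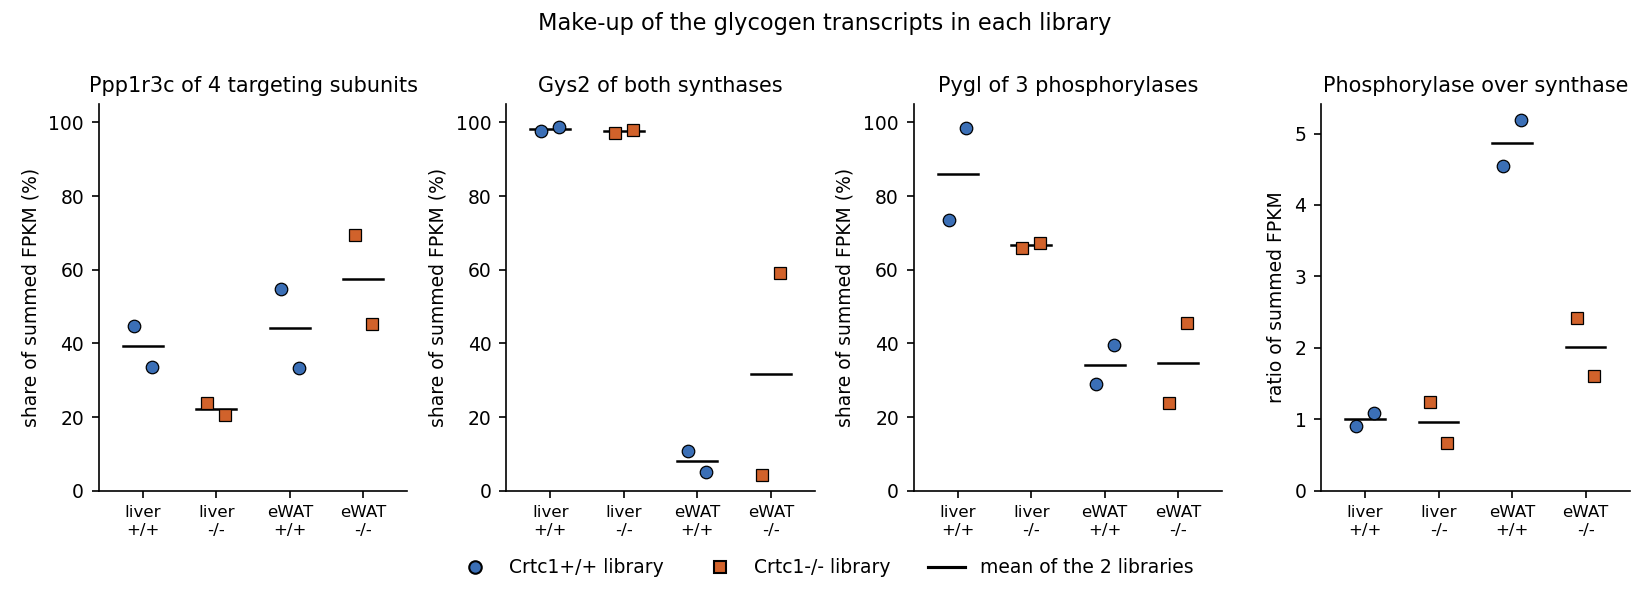
Share of Ppp1r3c in the FPKM of 4 targeting subunits, of Gys2 in the synthases and of Pygl in the phosphorylases (percent), and the ratio of phosphorylase to synthase FPKM, for each of the 8 libraries with the mean of each pair. Gys2 was over 97% of synthase FPKM in liver and 59.2% in 1 eWAT library, while the other eWAT libraries were at 4.18 to 10.8%.

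Levels in eWAT were also tested against liver within each genotype. In Crtc1+/+ mice all 7 members tested passed an adjusted p under 0.05, as did 54.9% of all 15587 genes. Higher in eWAT was Pygb, from 1.88 and 1.01 FPKM in liver to 38.8 and 37.0 in eWAT (log2 difference in CPM 3.31, adjusted p = 0.00105). So was Gys1, from 1.65 and 0.960 to 14.9 and 14.1 FPKM (2.08, adjusted p = 0.00256). The FPKM are not scaled by TMM and lie further apart than these log2 differences. Under other settings the differences ran from 2.90 to 4.71 for Pygb and from 1.38 to 3.48 for Gys1. Ppp1r3d had 6 counts over both livers and 101 over both eWAT libraries, a ratio per scaled depth of 6.98 with a 95% counting interval of 3.10 to 19.5 (adjusted p = 0.0101). Its sign turned, to -0.085, in quantile-normalized FPKM. Lower in eWAT were Gys2 (-7.12, adjusted p = 0.00748), Pygl (-2.61, adjusted p = 0.00594), Gbe1 (-2.14, adjusted p = 0.00413) and Ppp1r3b (-3.47, adjusted p = 0.0273). The call of Ppp1r3b was lost when any 1 of the 4 Crtc1+/+ libraries was left out, with adjusted p-values of 0.0707 to 0.122. That of Gys2 was lost without the second eWAT library (adjusted p = 0.0509), and that of Ppp1r3d without either liver library (0.0624 and 0.0590). Library-size scaling ended the calls of Ppp1r3b (0.0580) and Gbe1 (0.110). The eWAT libraries in this comparison are those with 7.80 and 9.12% of epididymis marker counts, whose part in these values was not tested.

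In Crtc1-/- mice Pygb (3.99, adjusted p = 0.000824), Gys1 (3.39, adjusted p = 0.000823) and Ppp1r3d were higher in eWAT, 3 of 7 where 27.8% of all genes passed. Ppp1r3d had 8 counts in liver and 376 in eWAT, a ratio of 21.0 (95% counting interval 10.6 to 49.1, adjusted p = 0.00367). The liver-type genes were lower in eWAT but did not pass: Ppp1r3b (-2.30, adjusted p = 0.120), Gys2 (-2.65, adjusted p = 0.129) and Pygl (-1.19, adjusted p = 0.102). Without the second Crtc1-/- eWAT library all 3 passed, at -5.24 (adjusted p = 0.000244), -6.30 (0.000461) and -1.85 (0.0209). Gbe1, at -0.64 (adjusted p = 0.205), turned to 0.47 with library-size scaling. Ppp1r3c, given without a test, differed by -2.96 between tissues in Crtc1+/+ mice and by 0.31 in Crtc1-/- mice. Scaling matters here, since the median of all genes was 0.61 in Crtc1+/+ and 0.20 in Crtc1-/- mice with the scaling used and 2.003 and 1.33 with library-size scaling.

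A wider list of 34 genes holds the rest of the pathway, 33 of which were tested in eWAT. There 2 rose and 0 fell by an adjusted p under 0.05, against 12.2% of all genes called, 8 had an unadjusted p under 0.05, against 33.3% of all genes, and the median was 0.29. DESeq2 called 8 of the 33, 5 higher and 3 lower, against 30% of all genes. Both that rose encode subunits of phosphorylase kinase, which activates phosphorylase. Phka2, the liver regulatory subunit, was at 13.3 and 14.2 CPM in Crtc1+/+ and at 55.2 and 41.1 CPM in Crtc1-/- eWAT (log2 1.81, SE 0.33, adjusted p = 0.0345). Its liver values, 16.0 and 17.9 against 15.8 and 14.8 CPM, differed by -0.15 (adjusted p = 0.790), and the difference between the tissues passed (1.87, adjusted p = 0.0157). Phkg1, the muscle catalytic subunit, was at 2.07 and 1.92 against 12.8 and 9.93 CPM (log2 2.50, SE 0.48, adjusted p = 0.0388). The other subunits did not follow, with Phkb at 14.9 and 36.4 against 5.28 and 8.61 CPM (log2 -1.89), a value below 0 that did not pass in edgeR (adjusted p = 0.0991) and did in DESeq2 (adjusted p = 0.0206). Without the first or the second Crtc1+/+ eWAT library edgeR called 0 genes, with 3436 and 2565 at an unadjusted p under 0.05, and adjusted p-values were 0.180 and 0.274 for Phka2 and 0.181 and 0.276 for Phkg1. Phkg1 also lost its call without either Crtc1-/- library (0.0703 and 0.0649), both lost it with library-size scaling (0.0709 for Phka2 and 0.0651 for Phkg1), and the tissue difference of Phka2 lost it with that scaling (0.0654) and without any 1 of the 4 liver or the 2 Crtc1+/+ eWAT libraries (0.0550 to 0.0738). The part of the epididymis, adipocyte, macrophage and skeletal muscle markers in the 2 rises was not tested. The summed share of each list differed between these groups, while within the muscle list Acta1 did and Myh4 overlapped.

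The rest of the list gave no call in eWAT with edgeR, whose adjusted p-values are given here, while DESeq2 called 6 further genes, among them Gyg (adjusted p = 0.0395), Pgm2 (0.0165), Ppp1cc (0.00994) and Phkb. Among the other glycogen enzymes the largest differences were those of Gyg, glycogenin, which primes the chain (1.12, adjusted p = 0.122), Pgm2, a phosphoglucomutase (1.01, adjusted p = 0.0878), and Ugp2, which makes UDP-glucose (0.51, adjusted p = 0.510). Of protein phosphatase 1 itself the catalytic subunits Ppp1cc (-0.83, adjusted p = 0.116) and Ppp1cb (-0.70, adjusted p = 0.252) were below 0, while the targeting subunit Ppp1r3f was at 0.67 (adjusted p = 0.495). Stbd1, which ties glycogen to membranes, differed by 1.04 (adjusted p = 0.228), Nhlrc1, the ubiquitin ligase malin, by -0.98 (adjusted p = 0.277) and its partner Epm2a, laforin, by 0.44 (adjusted p = 0.698). The liver genes of glucose 6-phosphate, G6pc (4.43, adjusted p = 0.194) and Gckr (3.58, adjusted p = 0.281), had their high value in the library rich in hepatocyte markers alone. G6pc, which encodes the liver glucose 6-phosphatase, was at 2.46 and 0.882 CPM in the controls and at 0.660 and 72.0 CPM in the knockouts.

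In liver 31 genes of the wider list were tested, 0 passed in edgeR against 0.0854% of all genes, DESeq2 also called 0 against 2.66%, and 2 had an unadjusted p under 0.05 in edgeR against 17.3%. Stbd1 was one of these 2, at 51.6 and 58.7 CPM in Crtc1+/+ and 33.8 and 26.4 CPM in Crtc1-/- liver (log2 -0.87, SE 0.26, edgeR unadjusted p = 0.00734, adjusted p = 0.175). Ppp1r3e, a further targeting subunit, was the other, with 26, 23, 9 and 10 counts (log2 -1.26, SE 0.48, adjusted p = 0.250). The median of the list in liver was -0.04.

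**Figure D5:**
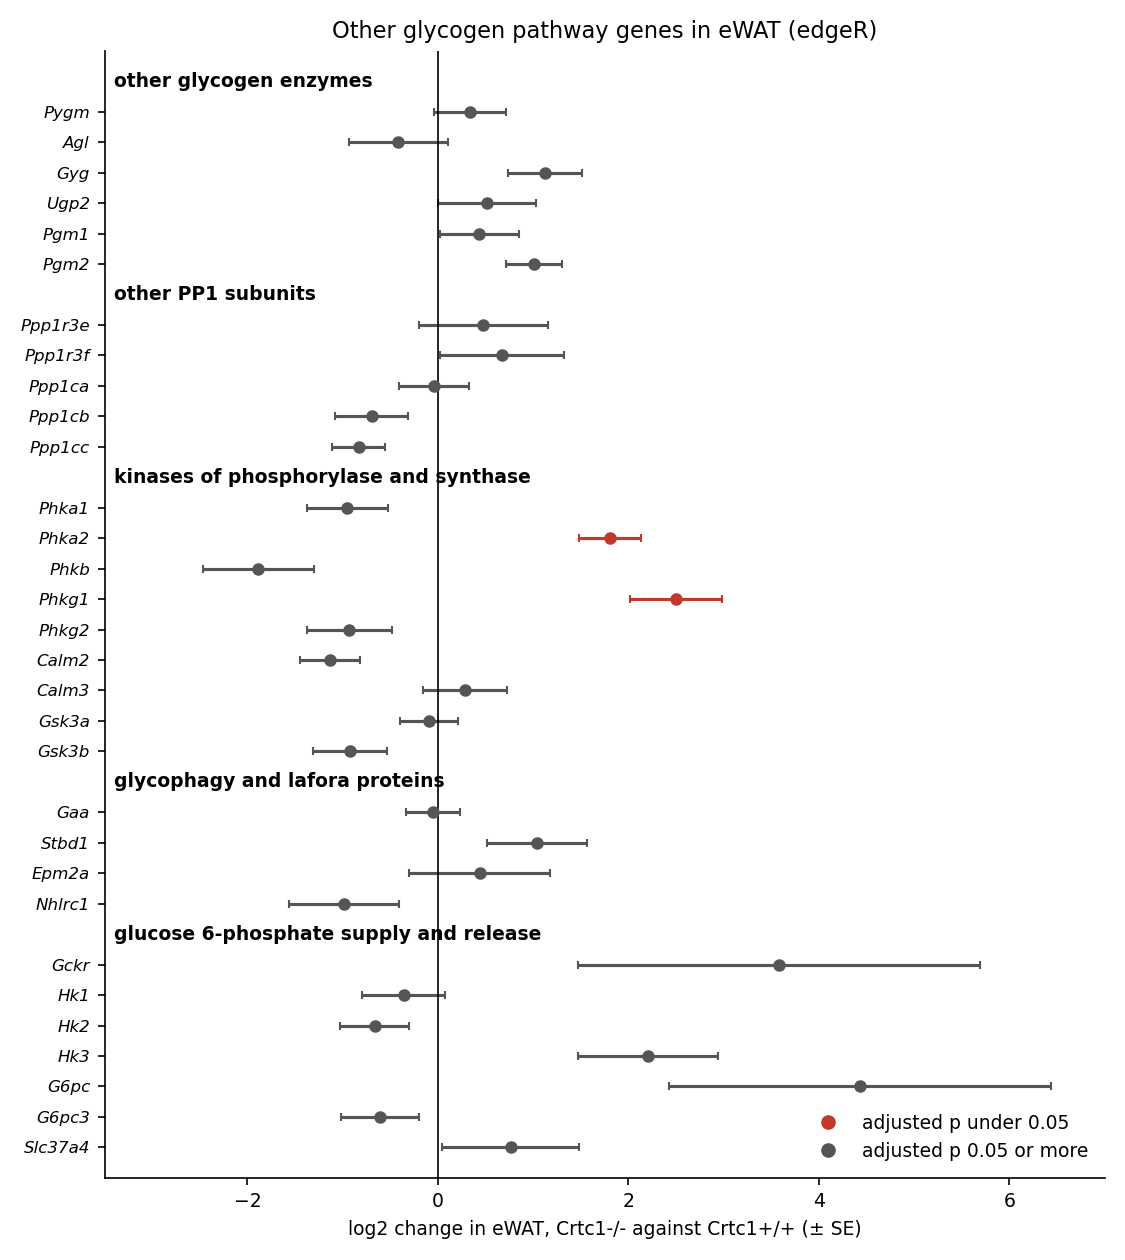
Log2 difference of Crtc1-/- from Crtc1+/+ in eWAT (horizontal axis, bars for the standard error from edgeR) for 31 tested genes of the wider list, grouped by role. Phka2 at 1.81 and Phkg1 at 2.50, in red, passed an adjusted p under 0.05, and Gckr and G6pc had the widest bars.

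Over the 8 libraries and 11018 genes compared, the 5 patterns most like that of Ppp1r3c included those of Mars2 (Pearson r of log2 CPM 0.987), Gtf3c1 (0.982) and Ddx47 (0.971). On the CPM scale set over both tissues, these 4 genes had their 2 highest values in Crtc1+/+ liver and their 2 lowest in Crtc1+/+ eWAT. Ppp1r3c spanned 5.93 to 68.0 CPM and Gtf3c1, a subunit of the transcription factor complex of RNA polymerase III, 43.1 to 110.2 CPM. These correlations rest on 8 points in 4 groups that share tissue and scaling, and describe the pattern only.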

How the data were processed

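Total RNA of 4 liver and 4 eWAT pieces was sequenced. The authors deposited estimated counts per gene (5.44 to 9.98% of values not whole) and FPKM per library, and the submitters' processing notes name HISAT, Bowtie2 and GRCm38.p6; the counting tool and annotation are not given in the sources used here. Counts were rounded. Genotypes were compared within each tissue, and tissues and their interaction with genotype over all 8 libraries, with edgeR 4.0.16 (filterByExpr, TMM, quasi-likelihood test, Benjamini-Hochberg over all genes tested, called under 0.05). DESeq2 1.42.0 and limma 3.58.1 on quantile-normalized log2(FPKM + 1) or log2(FPKM + 0.1), other filters and scalings, a replicate block and leaving out each library were alternatives. CPM were scaled by TMM within a tissue unless stated. Shares were taken from FPKM. The edgeR and DESeq2 fits were tested on simulated data.

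The members, the wider list, the marker lists and the tests were chosen with earlier results of these data known. Text names the 9 members, wider-list genes that passed a genotype test or were among the 3 largest eWAT differences of their role, genes among the 5 most like Ppp1r3c, up to 2 markers a list, and Crtc1. Pygm, the liver values of Stbd1 and Ppp1r3e, and wider-list genes opposite in the 2 tissues were added after their values were seen. Some genes that this rule would name are not reported here. Labels call the libraries biological replicates. Replicates differed by far more than counting noise (chi-square per degree of freedom 47.5 to 448), so each was counted as a library of its own, which does not show that they came from separate animals. With 2 against 2 libraries an exact permutation test cannot go below p = 0.333, so none was run. Counting intervals (95%, exact binomial) cover counting error only.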

Additional observations from a re-analysis of the deposited data

Results flagged for a closer look

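The members Ppp1r3c, Gys2 and Gbe1 had genotype differences of opposite direction in the 2 tissues, every Crtc1-/- library being below the controls in liver and above them in eWAT in CPM scaled within a tissue. In FPKM this did not hold for Gys2, whose first Crtc1-/- eWAT library was at 1.76 against 1.80 and 0.770 in the controls. Of all genes tested, 26.4% were apart and lower in Crtc1-/- liver and 31.3% were apart and higher in Crtc1-/- eWAT. How many genes were apart in opposite directions in the 2 tissues was not computed. For Ppp1r3c the change in eWAT minus that in liver was 3.27 on the log2 scale, and this difference was not tested because liver values chose the gene. For Gys2 it was 4.47 (edgeR adjusted p = 0.144), which did not pass, and the eWAT libraries labelled Crtc1-/- were at 4.45 and 92.2 CPM, the higher one with 10.9% of its counts in hepatocyte markers. For Gbe1 it was 1.503 (adjusted p = 0.120), which did not pass either. In liver the Gbe1 libraries were at 15.1 and 16.3 against 10.53 and 10.51 CPM, and in eWAT at 5.20 and 11.4 against 16.4 and 16.7 CPM. In the wider list 7 genes given here had CPM on opposite sides of the controls in the 2 tissues. For Phka2 the change in eWAT minus that in liver was 1.87 and passed (edgeR adjusted p = 0.0157), although its liver values lay below the controls in CPM alone and above them in FPKM (6.03 and 5.59 in Crtc1+/+, 6.72 in both Crtc1-/- libraries). For the other 6 it did not pass, and in FPKM the groups of Pgm2 in liver and of Stbd1 in eWAT overlapped. It was above 0 for Pgm2 (1.26, adjusted p = 0.170) and Stbd1 (1.87, adjusted p = 0.123). It was below 0 for the phosphorylase kinase subunits Phka1 (-1.22, adjusted p = 0.165) and Phkg2 (-1.28, adjusted p = 0.180), the hexokinase gene Hk2 (-1.46, adjusted p = 0.132) and the glucose 6-phosphatase gene G6pc3 (-1.37, adjusted p = 0.142).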

How the results depend on the processing

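Each result was recomputed with DESeq2, 2 other filters, 2 other scalings, limma on quantile-normalized FPKM, a replicate block, another choice of libraries in the fit and without each library in turn, 13 to 16 alternatives a comparison. In eWAT edgeR called 1875 genes, against 4620 with DESeq2, 3861 in a fit of all 8 libraries, 0 with the replicate block (5418 at an unadjusted p under 0.05) and 0 to 3073 without 1 library. In liver it called 10, against 311 with DESeq2, 301 with no expression filter, 82 with the block, 0 in a fit of all 8 libraries, 0 with limma at either pseudocount (1536, 1799 and 1732 at an unadjusted p under 0.05) and 1 to 1507 without 1 library. For the interaction it called 1081, against 2056 with DESeq2, 705 with library-size scaling, 2533 and 2390 with limma at pseudocounts of 1 and 0.1, and 0 to 2261 without 1 library, where the 0 had 2909 genes at an unadjusted p under 0.05. For eWAT against liver it called 8552 genes in Crtc1+/+ mice and 4285 to 5848 without 1 library. In Crtc1-/- mice it called 4330, against 7127 with library-size scaling, 2485 with the 4 libraries of that genotype alone and 1511 to 5962 without 1 library. Of the called genes the percentage higher was 54.6 in eWAT against 42.8 with upper-quartile and 35.3 with library-size scaling, 70 in liver against 87.5 with upper-quartile scaling, and 54.5 for the interaction against 43.5 and 37.2 with these 2 scalings. Between tissues it was 63.9 in Crtc1+/+ and 68.0 in Crtc1-/- mice, against 90.5 and 98.5 with library-size scaling and 45.5 and 54.8 with limma at a pseudocount of 1.

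The direction turned for 5 of the 8 members tested. In eWAT the Ppp1r3b value of 0.39 became -0.029 with library-size scaling, -0.067 and -0.27 with limma, -0.49 with the replicate block, -0.48 with the crossed block, and -2.40 to 1.29 without 1 library. In liver the Gys1 value of -0.05 became 0.021 with a mean count of at least 50, 0.034 with upper-quartile scaling and -0.40 to 0.37 without 1 library, and the Pygb value of -0.14 ran from -0.53 to 0.35 without 1 library. In the interaction Ppp1r3b (1.18) ran from -1.59 to 2.09 without 1 library. Between tissues Ppp1r3d in Crtc1+/+ mice (2.78) became -0.085 and -0.30 with limma, and Gbe1 in Crtc1-/- mice (-0.64) became 0.47 with library-size scaling. The cause was not tested. Ppp1r3c, Gys2 and Pygl kept their direction under every alternative run.

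In eWAT Ppp1r3c ranged from 1.13 to 1.83 and passed in 2 of 14 alternatives (adjusted p 0.00644 to 0.341), Ppp1r3d from 1.62 to 2.64 in 4 (0.00353 to 0.277), Gys1 from 0.98 to 1.63 in 4 (0.00184 to 0.348) and Gys2 from 0.63 to 5.02 in 2 (0.00406 to 0.656). In liver Ppp1r3c ranged from -2.08 to -1.62. In the interaction Ppp1r3d ranged from 1.17 to 2.85 and passed in 2 of 16 alternatives, Gys2 from 0.99 to 5.43 in 2, and Ppp1r3b passed in 1. Gys1, Pygl, Pygb and Gbe1 passed in 0. Between tissues Gys1, Pygl and Pygb in Crtc1+/+ mice and Ppp1r3d, Gys1 and Pygb in Crtc1-/- mice passed in all 13 alternatives.

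The labels do not say that replicate numbers mark a mouse, and the deviations of same-numbered libraries correlated at -0.33 in eWAT and 0.07 in liver between genotypes, and at 0.27 and 0.01 between tissues. The replicate block changed the call of no member, and with it 926 genes were called for the interaction and 8526 and 4512 between tissues. It took Phka2 and Phkg1 in eWAT from adjusted p-values of 0.0345 and 0.0388 to 0.0645 and 0.0603, and the fit of all 8 libraries took Phkg1 to 0.0884. Over the 14 alternatives in eWAT Phka2 passed in 9 and Phkg1 in 6. A crossed pairing in eWAT, added after seeing the data, called 1473 genes against 1875. A group left with 1 library is assumed to vary like the others. The 1 to 11 counts of Ppp1r3d and Ppp1r3g in liver limit what can be said of them there.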
